A study of Arabidopsis thaliana with 23 samples.

Results

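The transcripts described here are those of the plastid genome of Arabidopsis thaliana, read on Affymetrix ATH1 arrays in cells of the seedling root. They were taken as the probe sets whose only annotated gene carries a plastid locus tag, which gave 69 probe sets for 69 genes, among 22746 probe sets other than controls. A total of 68 passed the filter on low signal (above the 40th percentile of the array on 2 or more arrays). The psaA probe set, for a core subunit of photosystem I, was above that percentile on 0 of 23 arrays, with signals between 4.09 and 36.3, and was not tested. Just inside the filter were ndhH and rpoB, each above it on 4 arrays. By the complexes that the proteins form, the tested genes were 4 of photosystem I, 15 of photosystem II, 6 of the cytochrome b6f complex, 6 of the ATP synthase, 10 of the NDH complex, rbcL, 15 of the ribosome, 4 of the RNA polymerase and 7 others.

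The 23 arrays fall into 11 groups of Columbia seedlings grown for 5 days. CEI cells (cortex/endodermis initials, sorted by a pCYCD6::GFP marker from plants on standard media without Dex) have 3 arrays. The SHR line and the SCR line, which carry inducible SHORT-ROOT or SCARECROW, transcription factors that pattern the root ground tissue, have 2 arrays at each of 0, 1, 3, 6 and 12 h after transfer to 1 micromolar Dex, from ground tissue (cortex and endodermis) marked by the J0571 enhancer trap. The labels name neither the promoters that drive the inducible proteins nor the number of independent transformants, nor any mutant background. The labels give sorted cells as the source of all arrays, whereas the sample protocol describes cut roots collected directly into extraction buffer, and which of these applies to the time courses was not tested. The Dex time courses held neither a line lacking an inducible protein nor transfer to Dex-free medium, and exposure to Dex cannot be told apart from time since transfer.

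Plastids keep a small circular genome that encodes core subunits of the photosynthetic complexes, the large subunit of Rubisco, part of the plastid ribosome and the subunits of a bacterial-type RNA polymerase. The nucleus encodes the remaining subunits, another, phage-type polymerase and the RNA-binding proteins that process plastid transcripts. Many plastid genes are transcribed together and then cut into smaller RNAs. In roots the plastids are mostly colourless and photosynthesis genes are kept low, while plastids still make fatty acids, amino acids and starch. RNA for these arrays was labelled in a two-cycle protocol that starts from oligo(dT), and plastid transcripts carry only short or transient poly(A) tails, so how the signal of a plastid probe set scales with transcript number was not tested. Levels of different probe sets are therefore not set against each other below, and a fall of signal from fewer cells, fewer plastids per cell or less RNA per plastid cannot be told apart in bulk samples.

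The values are MAS5 signals on a linear scale, and the number of arrays limits their precision. Replicate arrays of a group correlated over all tested probe sets with a lowest r of 0.914, except in the SCR line at 6 h (0.862). Of the ground tissue markers SCL23, JKD and CO2, the first 2 were above the 40th percentile on all 23 arrays and CO2 on 22. The epidermis marker EXP7 was above it on 3 CEI, 8 SHR and 7 SCR arrays. Its signal was 84.5 to 206 on CEI, 20.3 to 248 on SHR and 11.6 to 141 on SCR arrays. The purity of the samples was not tested. Most other markers of root cell types, green tissue and plastid biology lists had no named probe set (24 of 183 listed loci had one). One technical feature followed the lines: the dap 3' spike-in control read 112 to 1218 on the 10 SHR arrays, against 0.66 to 8.40 on the 10 SCR arrays, and 2.24 to 5.13 on the 3 CEI arrays. The SHR arrays thus read added control RNA at levels that the other arrays lacked, and line and sample preparation cannot be told apart in any comparison of SHR arrays with other arrays.

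The mean level of the 68 plastid probe sets on the log2(signal + 10) scale differed far more between arrays than the mean of all 15983 tested probe sets, which stayed between 7.47 and 7.62. It was 7.60, 7.43 and 7.62 on the CEI arrays. The SHR arrays read 9.37 and 8.56 at 0 h, 9.57 and 9.48 after 1 h, 9.36 and 9.09 after 3 h, 9.06 and 8.82 after 6 h, and 8.57 and 9.16 after 12 h. The SCR arrays read 8.51 and 8.08 at 0 h, 8.91 and 7.76 after 1 h, 7.85 and 8.47 after 3 h, 8.32 and 7.87 after 6 h, and 8.59 and 7.52 after 12 h. CEI replicate 2 lay below every ground tissue array, and CEI replicates 1 and 3 lay below all of them except SCR 12 h replicate 2. Within a line the replicates of a time often lay as far apart as the times did: the pooled SD between replicates of this mean was 0.43, and the widest pairs were SCR 1 h and SCR 12 h. Ordered by group mean, the 5 SHR groups stood highest (1 h 9.53, 3 h 9.22, 0 h 8.96, 6 h 8.94 and 12 h 8.86), the 5 SCR groups came next (1 h 8.33, 0 h 8.29, 3 h 8.16, 6 h 8.10 and 12 h 8.06), and CEI cells were lowest with 7.55. No 2 neighbours in that order except SHR 12 h with SCR 1 h and SCR 12 h with CEI were more than the pooled SD apart.

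**Figure D1:**
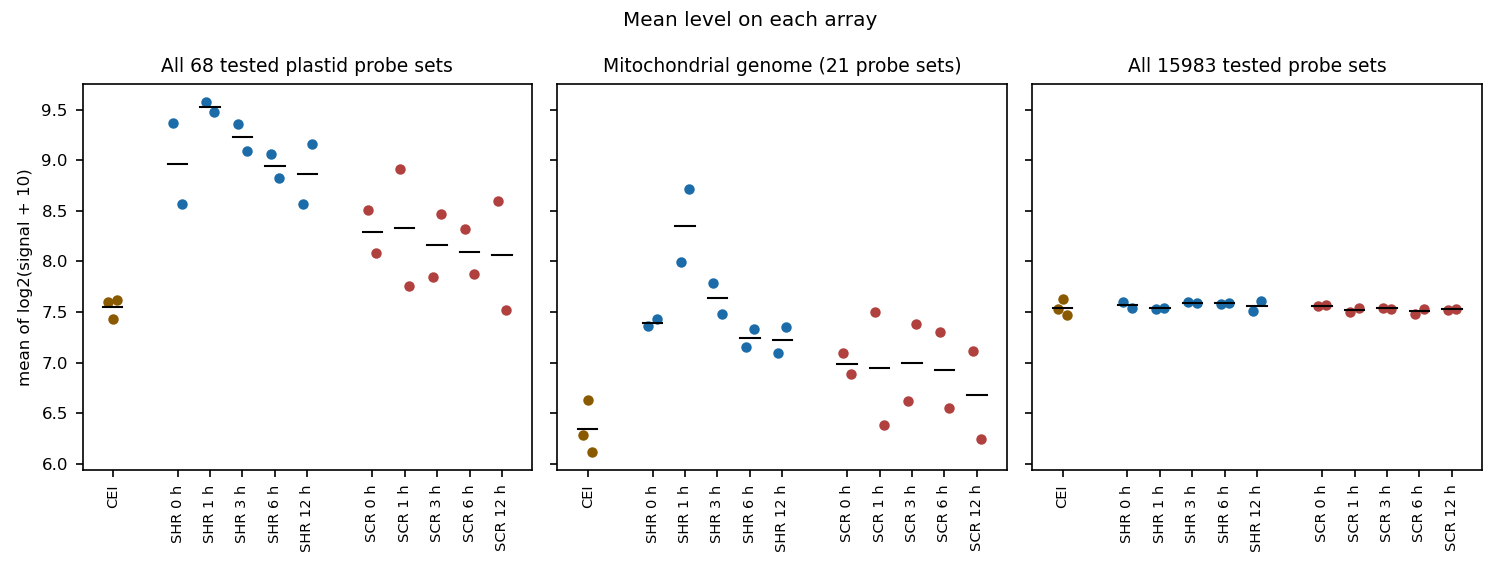
Mean of log2(signal + 10) on each array (points) and the group mean (lines) for the 68 plastid probe sets, 21 probe sets of the mitochondrial genome and all 15983 tested probe sets, with CEI cells first and each line's times in order. The plastid mean runs from 7.43 to 9.57 while the mean of all tested probe sets stays between 7.47 and 7.62.

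The levels of most plastid genes varied together across arrays. The correlation of a plastid gene with the mean of the other plastid genes over the 23 arrays had a median of 0.90, and 0.0565% of the other tested probe sets reached that value. The points share scaling, labelling and cell source, so this is a description of co-variation only. The loosest genes were petD (r = 0.38), psaJ (0.51), rpoB (0.57), psbH (0.57) and rpl32 (0.59). Several of these read low signal, and rpoB was below the 40th percentile on every array in 7 of 11 groups.

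The difference between the SHR and SCR lines, averaged over the 5 times, asks how the plastid genes stood in lines that differ in the inducible protein. In the SHR line 48 of 68 plastid genes were higher and 0 were lower (limma, Benjamini-Hochberg adjusted p under 0.05), which is 70.6% against 12.3% of all tested probe sets called higher and 10.3% called lower. The median difference was 0.99 on the log2 scale, against 0.08 for all tested probe sets, and 65 of 68 were positive. Of the 64 plastid genes above the 40th percentile on 2 or more SCR arrays, 46 were higher, against 12.3% of all probe sets filtered in that way. The 2 other called genes, atpI and petG, passed the filter through SHR arrays, where they are high, and their calls are given as description only. For 9 plastid genes every SHR array lay above every SCR array (13.2%, against 0.375% of all tested probe sets). This test takes the 10 arrays of a line as independent. With each replicate series averaged over its times, an alternative chosen after seeing the data that leaves 2 arrays' worth per line, only psbE and ndhA were called (0.213% of all tested probe sets were called higher and 0.513% lower). On these averages 47 of 68 were higher at an unadjusted p under 0.05 and 0 lower (8.16% and 7.84% of all), and 59 of 68 had both SHR averages above both SCR averages (30% of all). Among the 9 nuclear green tissue markers 7 were higher in SHR, and LHCB4.1 and LHCB4.3 were not called. LHCB4.2, among the 7, was above the 40th percentile on 0 SCR arrays, and its call is given as description only. The summed signal of the 9 was 423 to 2754 on SHR arrays against 385 to 759 on SCR arrays. Signs of RNA quality differed between the lines as well. The GAPDH 3'/5' signal ratio had a median of 1.60 on SHR arrays against 1.97 on SCR arrays, the actin 3'/5' ratio 9.96 against 13.2, and the 25S rRNA control signal 8863 against 7099, with overlapping ranges. The part of these markers and signs in the plastid result was not tested.

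**Figure D2:**
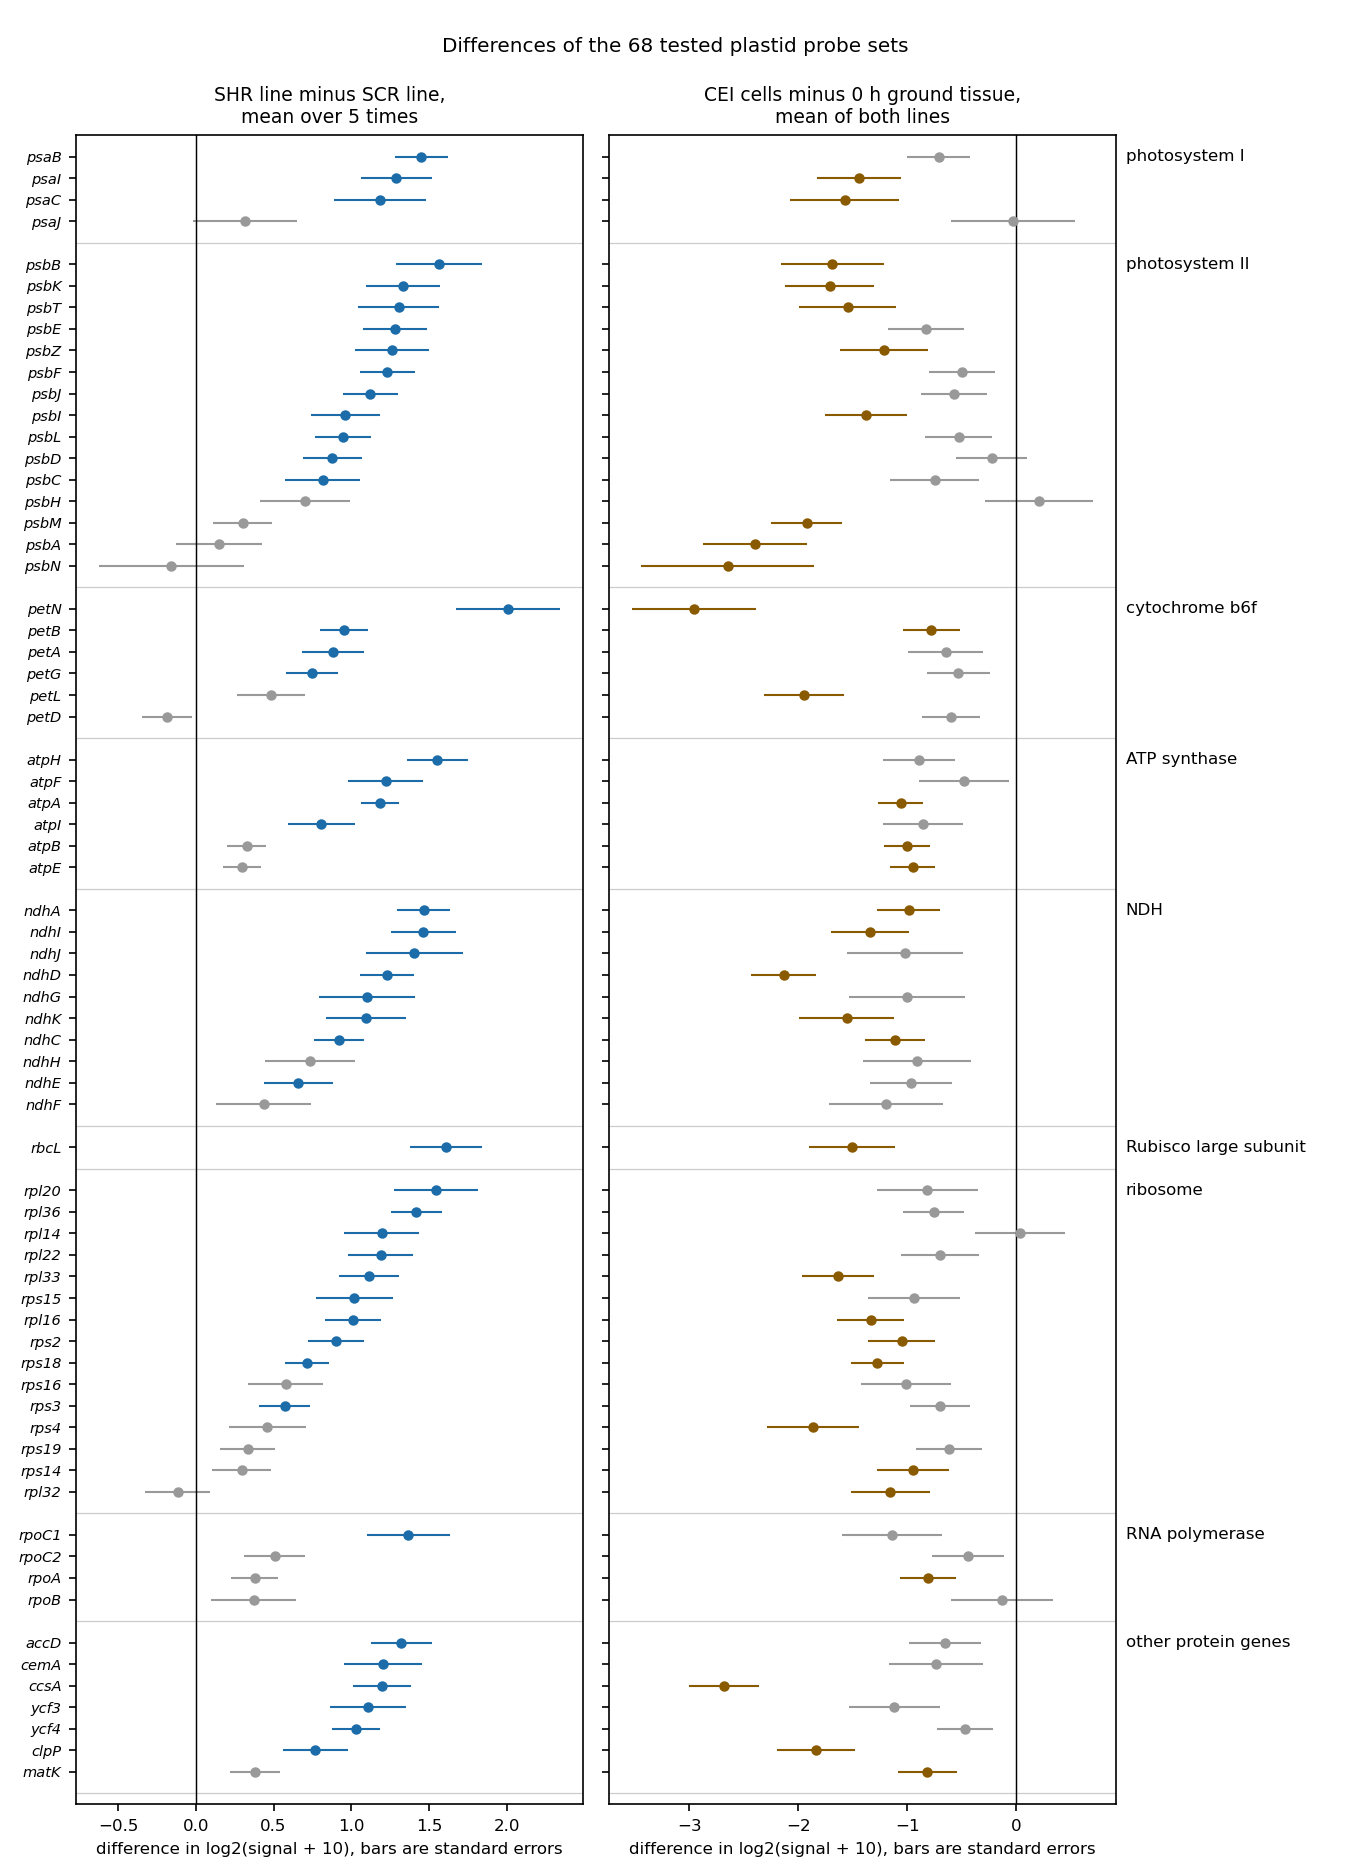
Difference in log2(signal + 10) with its standard error for each of the 68 tested plastid genes, grouped by complex: SHR line minus SCR line averaged over 5 times (left) and CEI cells minus the mean of both lines at 0 h (right). Coloured points passed an adjusted p of 0.05, 48 on the left (all higher) and 33 on the right (all lower), and grey points did not.

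In photosystem I, which drives electrons from plastocyanin to ferredoxin, 3 of 4 tested genes were higher in the SHR line. Signal of psaB, a reaction-centre core subunit, was 3362 at the lowest, 5344 at the median and 7770 at the highest over the SHR arrays, against 1200, 1977 and 3289 over the SCR arrays. The groups did not overlap, and the difference was 1.45 ± 0.17 (log2, SE, adjusted p = 2.40e-05). The small subunit psaI did not overlap either (1502, 2148 and 2626 against 414, 826 and 1428, difference 1.29 ± 0.23), and psaC, which carries iron-sulfur clusters, differed by 1.18 ± 0.30. The small subunit psaJ differed by 0.32 ± 0.33 with an adjusted p of 0.52.

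In photosystem II, the water-splitting complex, 11 of 15 genes were higher in the SHR line. The smallest adjusted p belonged to psbF, for a cytochrome b559 subunit, at 1.23 ± 0.18 (0.000177). It read 207, 462 and 648 (lowest, median and highest) on SHR arrays, against 109, 183 and 273 on SCR arrays, with overlap at the edges. Next came psbJ at 1.12 ± 0.18 and psbE, the partner subunit of cytochrome b559, at 1.28 ± 0.20. The reaction-centre gene psbD was higher by 0.88 ± 0.19, and the antenna genes psbB by 1.57 ± 0.28 and psbC by 0.82 ± 0.24. The other reaction-centre gene, psbA, whose protein is turned over fastest in light, did not pass and read 148, 317 and 568 on SHR arrays against 116, 294 and 427 on SCR arrays. The ranges of the lines overlapped almost wholly and the difference was 0.15 ± 0.28 (adjusted p = 0.73), with a sign that turned when 1 array was left out (-0.01). The genes psbH (0.70 ± 0.29), psbM (0.30 ± 0.19) and psbN (-0.16 ± 0.46) also did not pass. The psbN gene, for an assembly factor, lies on the strand opposite to its neighbours psbT and psbH.

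In the cytochrome b6f complex, which links the photosystems, 4 of 6 genes were higher. The small subunit petN had the greatest difference of all plastid genes at 2.01 ± 0.33 (adjusted p = 0.000563), with 131, 379 and 817 on SHR arrays against 36.5, 69.8 and 189 on SCR arrays, the ranges overlapping. The gene for cytochrome b6, petB, was higher by 0.95 ± 0.15, that for cytochrome f, petA, by 0.88 ± 0.20, and petG by 0.75 ± 0.17, although petG was above the 40th percentile on only 1 SCR array. The gene for subunit IV, petD, was at -0.19 ± 0.16 (adjusted p = 0.42), and petL was at 0.48 ± 0.22 (adjusted p = 0.12).

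In the ATP synthase 4 of 6 genes were higher. The gene for the alpha subunit, atpA, had the smallest adjusted p of all plastid genes, 7.67e-06, at 1.19 ± 0.12. It read 1537, 1875 and 2435 on SHR arrays against 596, 866 and 1094 on SCR arrays, with no overlap. The proton-ring subunit gene atpH did not overlap either, at 540, 876 and 1465 on SHR arrays against 183, 297 and 517 on SCR arrays (1.55 ± 0.19). The genes atpF and atpI, for other membrane subunits, were higher by 1.22 ± 0.24 and 0.81 ± 0.22, although atpI was above the 40th percentile on only 1 SCR array. The genes atpB and atpE, for the beta and epsilon subunits, were at 0.33 ± 0.12 (adjusted p = 0.0655) and 0.30 ± 0.12 (adjusted p = 0.0846). The atpE probe set read 7104, 9229 and 13156 on SHR arrays against 5923, 7309 and 10627 on SCR arrays, so that most of its range was shared. With quantile normalization atpE passed, at 0.37 (adjusted p = 0.0160).

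**Figure D3:**
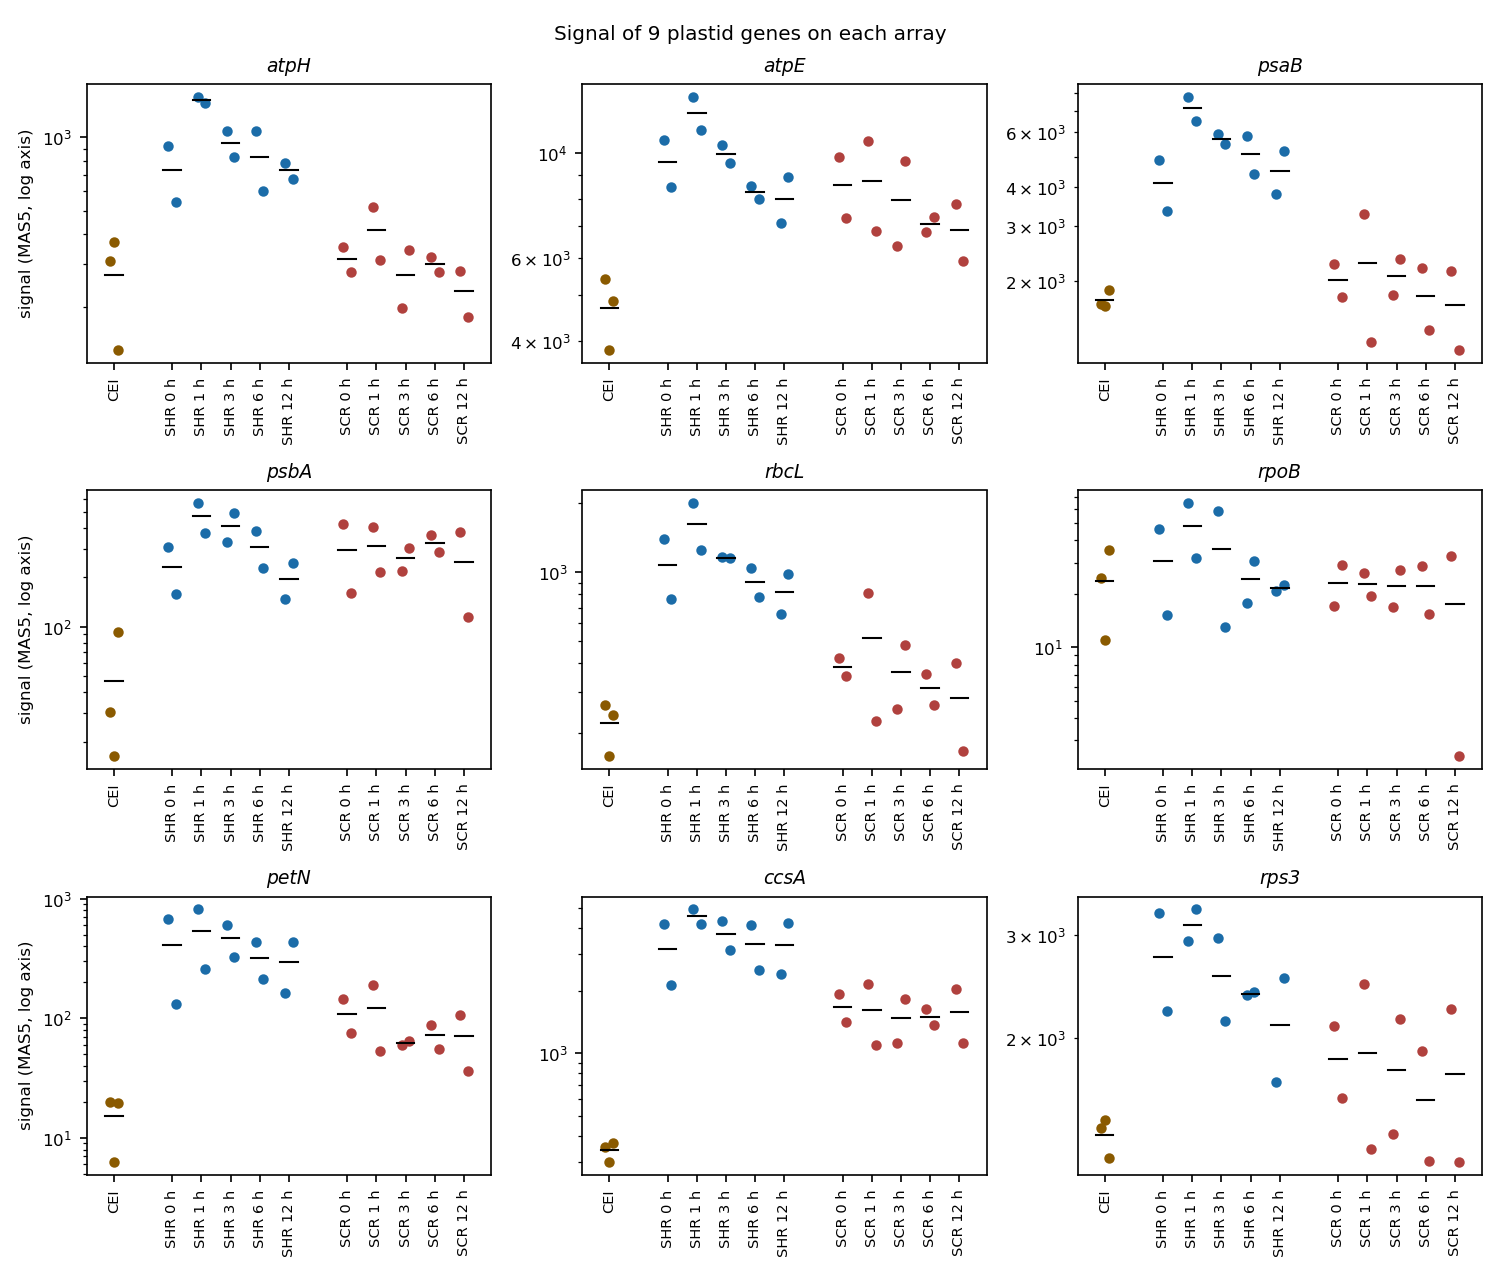
Signal (log axis) of 9 plastid genes on each array (points) with group means (lines), CEI cells first and each line's times in order. In atpH and psaB the SHR arrays lie above all SCR arrays, in atpE and psbA the lines overlap while CEI arrays lie lowest, and rpoB shows no order of groups.

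In the NDH complex, a thylakoid dehydrogenase that returns electrons from ferredoxin to plastoquinone, 8 of 10 genes were higher in the SHR line. The gene ndhA read 204, 284 and 353 on SHR arrays against 57.2, 101 and 187 on SCR arrays, and ndhD read 682, 994 and 1347 against 254, 452 and 621. Neither gene's arrays overlapped between the lines, and the differences were 1.47 ± 0.17 (adjusted p = 2.14e-05) and 1.23 ± 0.17 (adjusted p = 0.000147). The gene ndhI did not overlap either, at 1.46 ± 0.21. The genes ndhH (0.74 ± 0.29) and ndhF (0.44 ± 0.31) did not pass.

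The gene rbcL, for the catalytic subunit of the carbon-fixing enzyme Rubisco, read 655, 1092 and 1997 on SHR arrays against 166, 357 and 813 on SCR arrays. Only the tops of the SCR range reached the bottom of the SHR range, and the difference was 1.61 ± 0.23 (adjusted p = 0.000174).

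Genes for the plastid's own expression machinery were next. Of the ribosomal protein genes 10 of 15 were higher, led by rpl36 (1.42 ± 0.16, adjusted p = 2.07e-05), which read 576, 987 and 2165 on SHR arrays against 239, 360 and 563 on SCR arrays without overlap. Next were rpl33 at 1.11 ± 0.19 and rpl20 at 1.55 ± 0.27. The gene rpl32 was at -0.12 ± 0.21 (adjusted p = 0.72), and rps14, rps4, rps19 and rps16 were between 0.29 and 0.58 without passing. Of the 4 genes of the plastid-encoded polymerase only rpoC1, for a subunit of the catalytic core, passed, at 1.37 ± 0.27 (adjusted p = 0.00191). The other core gene rpoC2 was at 0.51 ± 0.19 (adjusted p = 0.0682), the alpha subunit gene rpoA at 0.38 ± 0.15 (adjusted p = 0.0776) and the beta subunit gene rpoB at 0.37 ± 0.27 (adjusted p = 0.34). The rpoB probe set read 13.1, 26.6 and 64.9 on SHR arrays and 2.44, 22.7 and 32.6 on SCR arrays, near or under the filter on most.

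Of the 7 remaining genes 6 were higher. The gene accD encodes a subunit of the acetyl-CoA carboxylase that begins fatty acid synthesis, a function that root plastids retain. It read 963, 1215 and 2205 on SHR arrays against 279, 562 and 984 on SCR arrays, touching at the edge, with a difference of 1.32 ± 0.19 (adjusted p = 0.000202). The photosystem I assembly factor gene ycf4 (1.03 ± 0.15) did not overlap between the lines, and ccsA, for haem attachment to c-type cytochromes, was 2.29-fold higher (adjusted p = 0.000336), at 2139, 4181 and 4953 on SHR arrays against 1095, 1521 and 2151 on SCR arrays. The protease subunit gene clpP was higher by 0.77 ± 0.21 (adjusted p = 0.0152). It did not pass without the 12 h arrays (0.75, adjusted p = 0.0547) or with the replicate series as a random block (adjusted p = 0.11). The intron maturase gene matK was at 0.38 ± 0.16 (adjusted p = 0.0921).

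**Figure D4:**
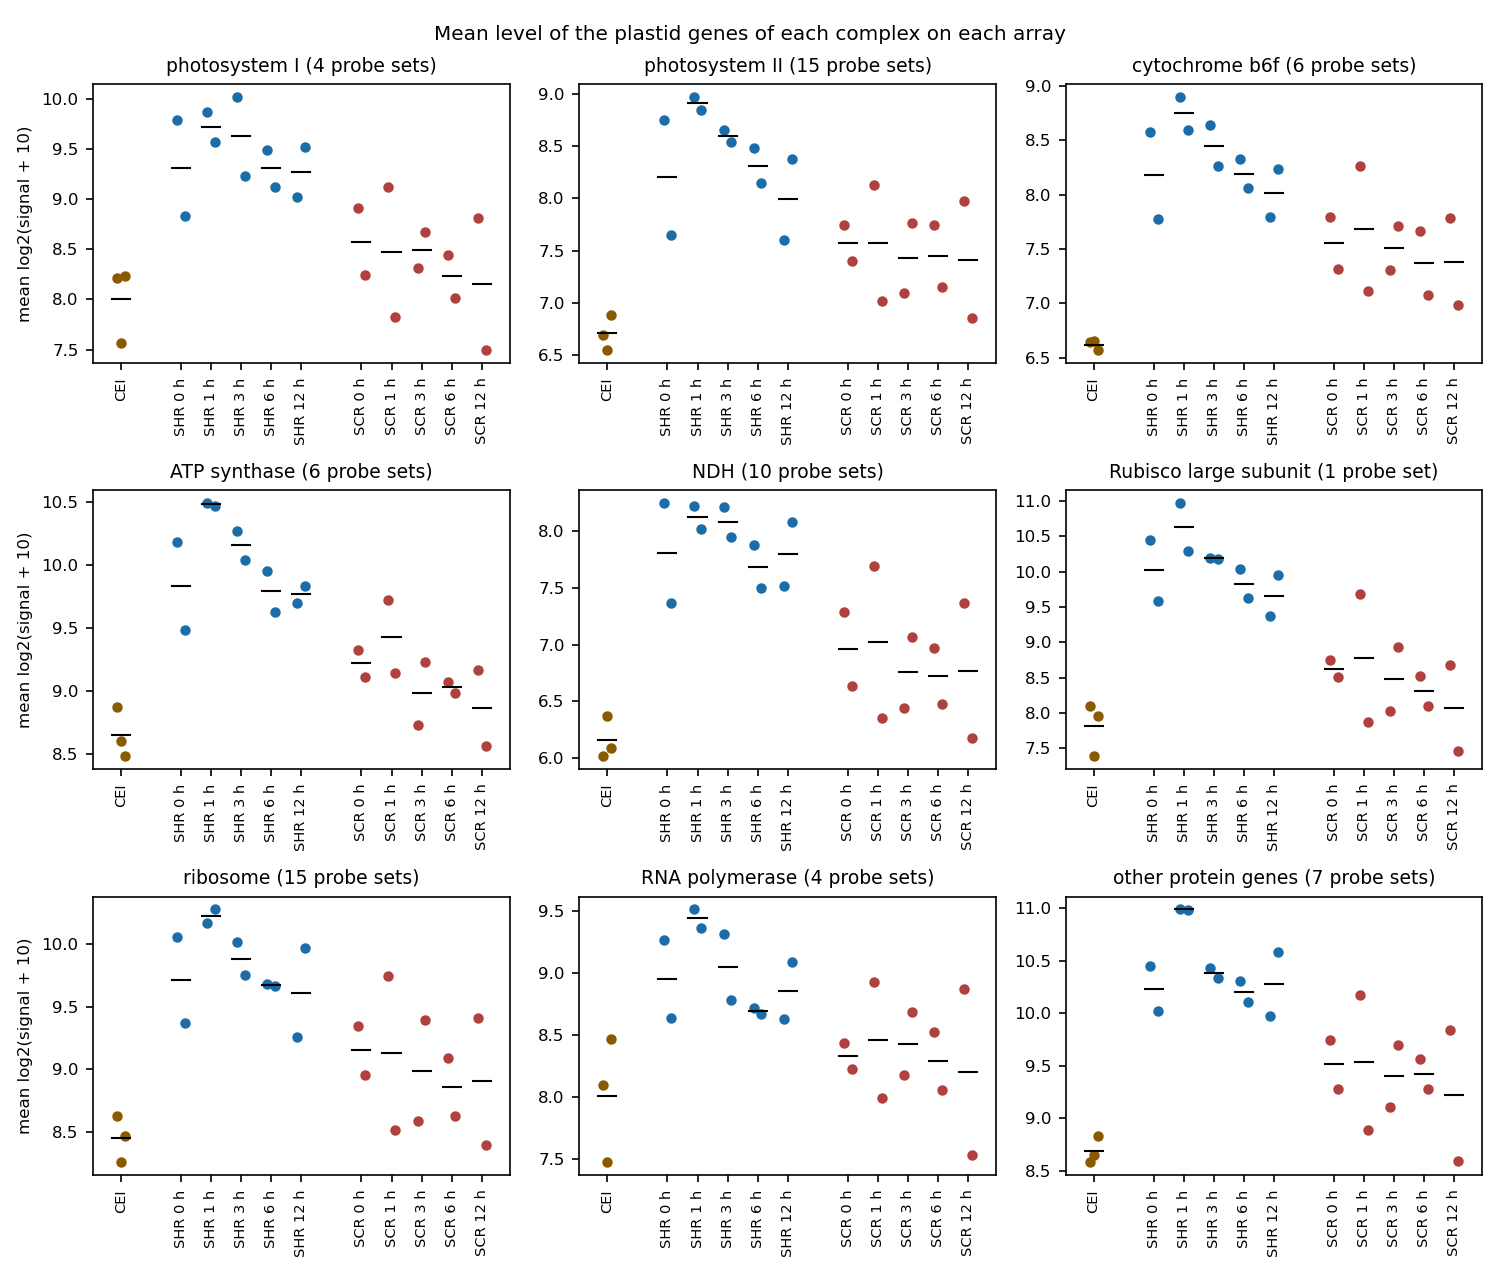
Mean of log2(signal + 10) over the tested plastid genes of each complex, per array (points) and per group (lines), with CEI cells first and each line's times in order. In each of the 9 panels the group means of the SHR line lie above those of the SCR line at the same time.

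Genes that are transcribed together were then read by transcription unit. In the unit rps2-atpI-atpH-atpF-atpA all 4 genes other than atpI, which passed the filter through SHR arrays, were higher in the SHR line, whereas 0 of 2 in atpB-atpE passed (0.30 and 0.33). All genes passed in psbE-psbF-psbL-psbJ (4 genes, 0.95 to 1.28), psbD-psbC-psbZ (3 genes, 0.82 to 1.26), psaI-ycf4-cemA-petA (4 genes, 0.88 to 1.29) and ndhC-ndhK-ndhJ (3 genes, 0.92 to 1.41). The unit from ndhH to ndhD had 6 of 7 genes higher. Other units were mixed: in psbB-psbT-psbH-petB-petD 3 of 5 passed and the differences ran from -0.19 to 1.57, and in rpoB-rpoC1-rpoC2 only 1 of 3 passed. The genes atpA and atpB encode partner subunits of the same head of the enzyme but lie in different units. The difference between the 2 units was not tested.

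At single times, with 2 arrays per group, few line differences passed. At 0 h, which the labels give as 0 h after Dex treatment, 0 plastid genes were called by limma (0% of all tested probe sets were called higher and 0.00626% lower). At an unadjusted p under 0.05, 12 were higher and 0 lower (2.97% and 3.2% of all tested probe sets were). The median difference was 0.74 (0.28 without SHR replicate 1 and 1.06 without SHR replicate 2). For 40 genes both SHR arrays lay above both SCR arrays (58.8%, against 18.3% of all). At 1 h only rpl36 was called, at 2.09 ± 0.37 (adjusted p = 0.0360), where 0.0938% of all tested probe sets were called higher and 0.0438% lower. At an unadjusted p under 0.05, 47 plastid genes were higher at 1 h (5.44% of all), with a median of 1.25 (0.60 without SCR replicate 2), and for 53 genes both SHR arrays lay above both SCR arrays (77.9%, against 18.8% of all). The rpl36 signal was 1795 and 2165 on the SHR arrays against 545 and 380 on the SCR arrays. At 3 h 0 plastid genes passed by limma (0.0626% of all were called higher and 0.0813% lower), with 39 higher at an unadjusted p under 0.05 (4.69% of all) and a median of 1.17. At 6 h 0 passed as well (0.0751% of all were called higher and 0.25% lower), with 29 higher at an unadjusted p under 0.05 (11.9% of all) and a median of 0.93. At 12 h 7 were called higher (atpA, ndhA, psaB, atpH, ndhI, ycf4 and accD), where 5.87% of all were, and 0 were called lower (7.38% of all). Signal of atpA at 12 h was 1859 and 1587 on the SHR arrays against 734 and 596 on the SCR arrays (1.36 ± 0.27, adjusted p = 0.00515). The gene ndhA read 279 and 289 against 108 and 58.2 (1.71 ± 0.38), and psaB read 3808 and 5210 against 2145 and 1200 (1.47 ± 0.38). These arrays did not overlap. At 12 h both SHR arrays lay above both SCR arrays for 35 plastid genes (51.5%, against 40.1% of all). The 1 gene whose SHR arrays both lay below the SCR arrays at 12 h was petD (36.3 and 20.7 against 49.5 and 42.9), which is 1.47% against 25.5% of all. Leaving out 1 array moved the 12 h count to between 0 (without SCR replicate 2) and 13 (without SCR replicate 1), with 1 left without either SHR array. At 1 h the count was 12 without SCR replicate 1.

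Against 0 h, 0 plastid genes were called at any time in either line by limma, where 0.0125% of all tested probe sets were called higher for SHR 6 h, 0.00626% were called higher for SCR 12 h, and 0% were called in every other such comparison and direction. In the SHR line at 1 h the median change was 0.59 (all tested probe sets -0.13), 63 of 68 changes were positive, 9 had an unadjusted p under 0.05 upwards (7.42% of all tested probe sets did) and for 38 both 1 h arrays lay above both 0 h arrays (55.9%, against 19.4% of all). The gene rpl36 had the smallest unadjusted p, with 1795 and 2165 at 1 h against 1042 and 576 at 0 h (1.34 ± 0.37, adjusted p = 0.24). By complex the median change at 1 h was 0.71 in photosystem II, 0.65 in the RNA polymerase, 0.61 in cytochrome b6f, 0.58 in the ATP synthase, 0.45 in the ribosome, 0.40 in photosystem I and 0.32 in NDH. The size rested on the SHR 0 h arrays, which differed by 0.80 in their plastid mean: without SHR 0 h replicate 2 the median was 0.19, and without replicate 1 it was 0.97. At 3, 6 and 12 h the SHR medians were 0.27, 0.00 and -0.06, with 2, 0 and 0 genes upwards at an unadjusted p under 0.05, and 0 downwards. The sign of each of these 3 medians turned with the SHR 0 h array left out: without replicate 2 they were -0.13, -0.37 and -0.44, and without replicate 1 they were 0.61, 0.38 and 0.28.

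In the SCR line the median changes at 1, 3, 6 and 12 h were 0.02, -0.13, -0.19 and -0.26, with 0 genes at an unadjusted p under 0.05 in either direction. Leaving out a single SCR array turned the sign of the median at each of the 4 times. The difference between the lines in the change from 0 h was not called for any plastid gene at any time (0% of all tested probe sets were called, and 0 plastid genes had an unadjusted p under 0.05), with medians of 0.56, 0.43, 0.23 and 0.11. Leaving out 1 array turned the sign of each, to -0.06 at the lowest for 1 h (without SCR 1 h replicate 2), -0.01 for 3 h and -0.18 for 6 h (both without SHR 0 h replicate 2) and -0.39 for 12 h (without SCR 12 h replicate 2). The comparisons with 0 h share their 0 h arrays. The gene psbD, at 1 h, was the only one in which both arrays moved up in the SHR line (0.50) and both down in the SCR line (-0.40). The adjusted p of the difference was near 1. Its SCR 1 h signals, 26.0 and 26.7, lay under the 40th percentile of both arrays (36.2 and 34.8). No share of such opposite moves over all tested probe sets was counted, so this is description only.

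The CEI arrays were compared with the 0 h arrays of both lines, which asks how the initial cells that divide to give cortex and endodermis differ from the tissue they form. In CEI cells 33 of 68 plastid genes were lower and 0 were higher (48.5%, against 10.7% of all tested probe sets called lower and 9.62% called higher). The median difference was -0.97 (all tested probe sets near 0), 66 of 68 were negative, and for 39 genes all 3 CEI arrays lay below all 4 ground tissue arrays (57.4%, against 14.4% of all). Of the 50 plastid genes above the 40th percentile on 2 or more CEI arrays, 24 were lower, against 8.97% of all probe sets filtered in that way. The 9 other called genes were ndhK, petL, petN, psaC, psbA, psbB, psbN, psbT and rps14. They passed the filter through ground tissue arrays, where they are high, and their calls are given as description only. Of these 9, psbA, psbB, psbN and psbT belong to photosystem II, petL and petN to cytochrome b6f and psaC to photosystem I. The gene ndhK belongs to NDH and rps14 to the ribosome, so the counts of these complexes hold calls that are description only. With these 9 counted in, lower genes were found in every complex. They were 8 of 15 in photosystem II, 7 of 15 in the ribosome, 5 of 10 in NDH and 3 of 6 each in cytochrome b6f and the ATP synthase. A further 2 of 4 were in photosystem I, 1 of 4 in the RNA polymerase, rbcL, and 3 of 7 among the others. Of the 9 nuclear green tissue markers 5 were lower, with a summed signal of 233 to 390 on CEI arrays. Against SHR at 0 h alone 5 of 9 were lower (median -1.76, with 7.33% of all tested probe sets called lower). Against SCR at 0 h alone 1 of 9 was lower (median -1.05, with 6.85% of all called lower). PSAE1 and PSBY were above the 40th percentile on 0 CEI arrays, and RCA and PSBW on 1. The part of such cells or of plastid state in the plastid result was not tested. CEI cells also differ from the ground tissue samples in plant line, marker and medium, which cannot be told apart.

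The gene with the smallest adjusted p was ccsA, with 353, 298 and 367 on the CEI arrays against 4217 and 2139 on the SHR 0 h and 1924 and 1409 on the SCR 0 h arrays. All CEI values lay far below the lowest ground tissue value, and the difference was -2.68 ± 0.32 (adjusted p = 5.48e-05). The gene ndhD read 122, 135 and 180 on CEI arrays against 1102, 682, 560 and 462 on the 0 h arrays (-2.13 ± 0.30, adjusted p = 0.000171). The photosystem II subunit gene psbM read 966, 776 and 1285 against 5680, 2699, 4670 and 2843 (-1.92 ± 0.32, adjusted p = 0.000744). The 3 genes belong to different complexes and transcription units, and none of them overlapped between CEI and 0 h arrays.

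The greatest difference in size was that of petN, with 20.0, 6.28 and 19.4 on CEI arrays against 682, 131, 144 and 75.3 at 0 h (-2.96 ± 0.57). The CEI values lay under the 40th percentile of their arrays, and with that percentile in their place petN was at least 4.09-fold lower in CEI cells (adjusted p = 0.00197 in the fit of the measured values). The gene psbA, which did not differ between the lines beyond its error, read 30.2, 16.3 and 92.9 on CEI arrays against 308, 159, 426 and 162 at 0 h (-2.40 ± 0.48, adjusted p = 0.00238), and was above the 40th percentile on only 1 CEI array. For rbcL the values were 265, 158 and 238 on CEI arrays against 1392, 762, 421 and 354 at 0 h (-1.51 ± 0.40, adjusted p = 0.0135). Both genes were lower on every CEI array, and for both photosynthesis genes the spread of the 4 ground tissue arrays was wide. The housekeeping protease gene clpP was lower as well, at 1911, 1304 and 1552 against 10386, 6770, 4535 and 3184 (-1.84 ± 0.36). For matK, at 1886, 1092 and 2160 against 3385, 2945, 2821 and 2526, the difference of -0.82 ± 0.27 (adjusted p = 0.0430) did not pass without the low-signal filter, with median scaling or without the trend in eBayes (adjusted p between 0.0529 and 0.0655). It also did not pass without any 1 of the arrays used except CEI replicate 3 (adjusted p between 0.0609 and 0.22).

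For other plastid genes the difference in CEI cells did not pass. The accD gene read 429, 508 and 684 on CEI arrays against 1128, 1161, 761 and 495 at 0 h, with overlap and a difference of -0.65 ± 0.33 (adjusted p = 0.17). Differences near 0 were those of rpl14 (0.03 ± 0.41), psaJ (-0.03 ± 0.57), rpoB (-0.13 ± 0.47), psbD (-0.22 ± 0.32) and psbH (0.21 ± 0.50). Their intervals are wide, so these values do not show equal levels. On the 3 CEI arrays 13 of 69 plastid probe sets were below the 40th percentile throughout, against 1 to 9 in the ground tissue groups, and for those the differences may be understated by the pseudocount of 10.

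The 2 lines gave different sizes when they served apart as ground tissue, with the same CEI arrays in both. Against SHR at 0 h 33 genes were lower (7.33% of all tested probe sets called lower) with a median of -1.27, and against SCR at 0 h 10 were lower (6.85% of all) with a median of -0.64. The 10 were ccsA, ndhD, psbM, psbA, atpB, petL, atpE, rps4, rpl33 and petN. Of these psbA, petL and petN passed the filter through ground tissue arrays, where they are high. Their calls are given as description only. No count filtered on CEI arrays alone was made against either single line at 0 h or against 12 h. For ccsA the differences were -3.11 ± 0.38 against SHR and -2.25 ± 0.38 against SCR. Against both lines at 12 h 24 were lower (9.70% of all) with a median of -0.84, led by ccsA (-2.66 ± 0.32) and ndhD (-1.86 ± 0.30). In these comparisons 0 plastid genes were called higher, where 5.95% of all tested probe sets were against SHR at 0 h, 4.58% against SCR at 0 h and 7.4% against 12 h. The counts depended on single arrays. Against both lines at 0 h the count was 17 without SCR replicate 1, 18 without SHR replicate 1 and 21 without CEI replicate 1 or 2. Against SHR at 0 h it was 5 without SHR replicate 1. Against SCR at 0 h it was 1 without SCR replicate 1, 5 without SCR replicate 2 and 6 without CEI replicate 2 or 3. Against 12 h it was 8 without SCR replicate 1, 9 without SHR replicate 2, 12 without CEI replicate 2 and 14 without CEI replicate 3. The medians stayed between -1.67 and -0.46 in all of these.

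The make-up of the plastid signal was described by each gene's log2 level minus the mean of the plastid genes on the same array. This is a description without a test, since no share over other probe sets is comparable. On this scale CEI cells lay below all 0 h arrays for petN, ccsA, psbN, ndhD, petL, psbM, rps4, clpP and rpl33. They lay above all of them for rps3, rps19, psbJ, petG, psbL, psbF, rpoC2, rpl14 and psbH. Relative ccsA was 0.90 on average in CEI cells and 2.50 in 0 h ground tissue, and relative psbH was -1.12 in CEI cells and -2.41 in 0 h ground tissue. Of these petN, psbN, petL and petG were under the 40th percentile on all CEI arrays. The genes psbJ, psbL and psbF are from a single transcription unit, and rps19, rps3 and rpl14 from another. Between the lines only rbcL was relatively higher on every SHR array (0.96 on average, against 0.27 in SCR), and psbM, rps4, rpl32, rps19 and petD were relatively lower on every SHR array. Relative petD averaged -3.48 in SHR and -2.38 in SCR, and relative rpl32 averaged 0.11 in SHR and 1.14 in SCR.

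Nuclear genes for plastid proteins were read by function. Of the photosystem and electron transport subunits 5 of 5 tested were higher in the SHR line, where 12.3% of all tested probe sets were. In CEI cells 4 of 5 were lower (all except PSAN), where 10.7% of all were. Of these, PSBY and PSAE1 were above the 40th percentile on 0 CEI arrays and PSBW on 1. PSBY, PSAE1 and PSBW passed the filter through ground tissue arrays, where they are high. Their calls in CEI cells are given as description only. PSBW, a photosystem II subunit, read 86.3, 401 and 571 (lowest, median and highest) on SHR arrays against 39.9, 64.0 and 116 on SCR arrays (2.04 ± 0.23, adjusted p = 1.56e-05). PSAE1, a photosystem I subunit, read 21.1, 188 and 426 against 13.9, 30.9 and 71.4 (2.11 ± 0.31), and was above the 40th percentile on only 2 SCR arrays. Rubisco activase, RCA, differed by 2.06 ± 0.22 between the lines and by -1.76 ± 0.38 between CEI cells and 0 h ground tissue, where PSBW was at -1.85 ± 0.39. RCA and PSBW each had 1 of 3 CEI arrays above the 40th percentile. PSAE1 was above it on 0 CEI arrays and was at least 1.90-fold lower there with that percentile in place of its signal (adjusted p = 0.00986 in the fit of the measured values). Of the light-harvesting genes 1 of 3 was higher in the SHR line (LHCB4.2, 0.85 ± 0.20) and 0 of 3 differed in CEI cells. LHCB4.2 was above the 40th percentile on 0 SCR arrays, and its call between the lines is given as description only.

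Of the nuclear genes of the plastid ribosome none passed in these comparisons. Of 5 tested, 0 were called in either comparison by limma, with 1 at an unadjusted p under 0.05 in the line difference (PRPL29, -0.45 ± 0.17) and 0 in CEI cells, and medians of -0.26 between the lines and -0.12 in CEI cells. Their summed signal was 1182 to 1862 on CEI arrays, 819 to 2002 on SHR arrays and 891 to 2162 on SCR arrays. RPOTMP, the phage-type polymerase that serves both mitochondria and plastids, was at 0.50 ± 0.21 between the lines (adjusted p = 0.0863) and at 0.90 ± 0.35 in CEI cells (adjusted p = 0.0809). The plastid division gene FTSZ2-1 was higher in CEI cells, with 556, 744 and 856 (lowest, median and highest) against 166 to 465 over all SHR arrays and 162 to 415 over all SCR arrays, a difference of 1.22 ± 0.27 from 0 h (adjusted p = 0.00440).

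**Figure D5:**
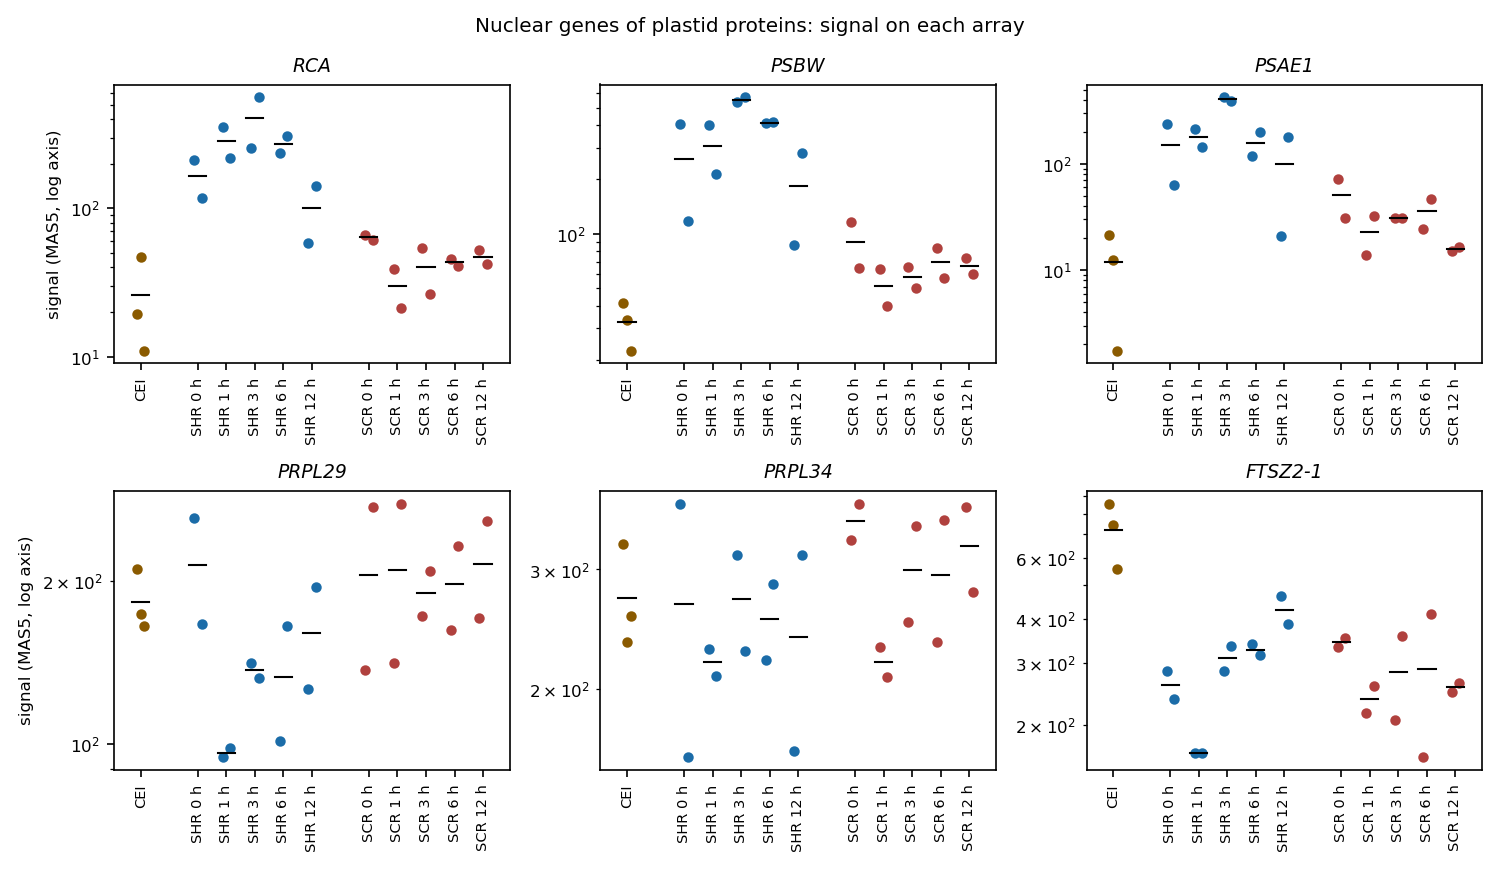
Signal (log axis) of 6 nuclear genes of plastid proteins on each array (points) with group means (lines), CEI cells first and each line's times in order. RCA, PSBW and PSAE1 have higher medians in the SHR line than in the SCR line and in CEI cells, and the SCR and CEI ranges overlap. For each of these genes the lowest SHR signal lies within the SCR range. The ribosomal protein genes PRPL29 and PRPL34 overlap between CEI cells and the arrays of each line as a whole. FTSZ2-1 is highest on the 3 CEI arrays.

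The mitochondrial genome gave a measure of the other organelle, from 23 probe sets of 16 genes, of which 21 were tested. Between the lines 10 of 21 were higher in SHR and 0 lower (47.6%, against 12.3% of all tested probe sets), with a median of 0.60. In CEI cells 4 of 21 were lower (19%, against 10.7% of all) with a median of -0.67. No mitochondrial count filtered on CEI arrays alone was made. The matR probe set read 3.75, 16.2 and 2.61 on the CEI arrays, under the 40th percentile of each (35.2, 43.6 and 31.0). It passed the filter through ground tissue arrays, and its fall in CEI cells is description only. At 1 h in the SHR line the mitochondrial median was 1.05 against 0.59 for the plastid genes, with 0 called in either by limma and 12 of 21 upwards at an unadjusted p under 0.05 (7.42% of all). The mitochondrial mean was 7.99 and 8.71 on the SHR 1 h arrays and 7.36 and 7.43 on the SHR 0 h arrays, which lay close together, unlike the plastid means of the same arrays. The difference between plastid and mitochondrial genes was not tested.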

How the data were processed

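Per the labels, RNA of 23 samples was labelled by 2-cycle amplification and read on ATH1 arrays. The authors made the deposited signal intensities with MAS5, per the submitters' processing notes, and the values are linear, with a trimmed mean (2nd to 98th percentile) between 249.89 and 249.91 on every array. The MAS5 version and detection calls are not stated in these sources. From these intensities log2(signal + 10) was taken with no further normalization. Of 22810 probe sets 64 controls were set aside, and 15983 above the 40th percentile of their array on 2 or more arrays were tested.

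limma 3.58.1 in R 4.3.3 fitted 11 group means in a single model (lmFit, then eBayes with its trend option) on 23 arrays, with 12 residual degrees of freedom, for 22 two-sided comparisons. The Benjamini-Hochberg adjustment ran over all 15983 probe sets, and the threshold was 0.05. The fit was also run on simulated data with independent noise on each array. That run held no shared effect of replicate series or sample preparation, so it cannot speak to either. The labels call the replicates biological, each pooled from many roots, and describe no separate culture, so p-values measure only the spread between these samples. Replicate numbers were not taken to pair the arrays. The correlation of replicate differences between times had a median of 0.39 for SHR (9 of 10 pairs of times over 0.1, lowest 0.05) and 0.24 for SCR (8 of 10, lowest -0.22), and the rule asked for every pair to be over 0.1.

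Genes were named through the supplied platform annotation and RefSeq locus tags (TAIR10.1), which hold 78 plastid protein gene symbols. A further 7 probe sets match several plastid locus tags and fall outside the 69. Mitochondrial locus tags of the planned kind were not in the reference table, so mitochondrial probe sets were taken by gene symbol, where the single gene was not in that table. The members and all lists were chosen with earlier results of these data known. Plastid genes with values in the text are, per complex, up to 3 with the smallest adjusted p and the 1 with the largest adjusted p in the line difference, up to 3 called genes in each other comparison, and rbcL, psbA, rpoB, accD, clpP and matK; others were named after their values were seen. The alternatives were other pseudocounts, no filter, median or quantile scaling, no trend, fewer arrays, replicate blocks and leaving out each array.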

Additional observations from a re-analysis of the deposited data

Results flagged for a closer look

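A signal outside the main measurement was found in the spike-in controls. The dap 3' control read at least 112.4 on every SHR array, with a median of 670 and a highest value of 1218, against at most 8.40 on the SCR arrays and at most 5.13 on the CEI arrays. It stands above the level of all 13 arrays of the other groups, and line and sample preparation cannot be told apart. Groups of 2 or 3 arrays are too small for a test of outlying arrays.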

How the results depend on the processing

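The line difference over 5 times gave 44 to 53 genes called higher under the other settings except the random block (35, consensus correlation 0.20) and 47 to 55 when single arrays were left out. With replicate series averaged over times, 2 were called. That alternative and the filters on SCR or CEI arrays alone (46 between the lines, 24 in CEI cells) were added after seeing the data. The line difference at 1 h called 0 genes with a pseudocount of 1, with the arrays of the contrast alone and with the random block, and 2 with a pseudocount of 50 and with quantile normalization. At 3 h and at 6 h a pseudocount of 50 and quantile normalization each gave 1. At 12 h the arrays of the contrast alone gave 14. CEI against SCR at 0 h gave 6 without the filter and 22 with the arrays of the contrast alone. With the replicate number as a block, 7 genes passed for 1 h, 7 for 3 h, 3 for 6 h and 19 for 12 h. The block assumes a pairing that the labels do not state. The cause of these moves was not tested. Leaving out single arrays gave 0 to 12 between the lines for 1 h, 0 to 2 for 6 h and 0 to 13 for 12 h. For CEI cells it gave 17 to 37 against both lines at 0 h, 5 to 34 against SHR 0 h, 1 to 8 against SCR 0 h and 8 to 28 against 12 h. The sign turned for psbN between the lines (0.0461 without 12 h, -0.45 to 0.13 without single arrays), psbA (-0.0140 to 0.31) and rpoB in CEI cells (-0.42 to 0.18). Median scaling would move groups against each other by at most 0.16 (SHR minus SCR 0.07). Over the settings run for single genes, 1396 values kept direction and side of the threshold, 52 lost the call and 11 gained it. Of the 69 probe sets 0 have names that mark shared transcripts, so leaving such probe sets out changed nothing. Signal over background limits ndhH, rpoB and the 13 probe sets that were dim on all CEI arrays, and the 2 arrays per group limit every single-time result.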

Other observations

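The duplicated genes of the plastid genome, whose probe sets match several locus tags and so lie outside the 69, were read in the same fit. All 7 were tested, and 6 were higher in the SHR line averaged over times and 0 lower, with a median of 0.85 (12.3% of all tested probe sets were higher). The ribosomal protein gene rps7 read 3909, 6180 and 8361 (lowest, median and highest) on SHR arrays against 1893, 3100 and 4747 on SCR arrays (0.92 ± 0.20, adjusted p = 0.00388), with overlap at the edges. The probe sets of rps12, which is spliced in trans, differed by 1.28 ± 0.19 and 0.85 ± 0.19, and rpl2 by 0.78 ± 0.18. The NDH subunit gene ndhB was at 0.52 ± 0.20 (adjusted p = 0.0662) and was the 1 of the 7 that did not pass. In CEI cells 4 of 7 were lower than in 0 h ground tissue (median -1.21, 10.7% of all were lower): rpl23 (-2.10 ± 0.54), an rps12 probe set (-1.49 ± 0.32), rpl2 (-1.21 ± 0.30) and ndhB. The ndhB signal was under the 40th percentile on every CEI array and at least 1.06-fold lower there with that percentile in its place (adjusted p = 0.00901 in the fit of the measured values). The rpl2 signal was 2184, 2234 and 2492 on CEI arrays in order of size, against 3932 to 7867 on the 4 ground tissue arrays at 0 h, without overlap. The ycf2 gene, whose product has no part in photosynthesis, was higher in the SHR line (0.76 ± 0.20) and at -0.56 ± 0.34 in CEI cells (adjusted p = 0.26).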
